A study of Homo sapiens with 24 samples.

Results

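This account concerns 2843 human genes with little intron sequence. They are the genes of the intron count table with at most 2000 bases of intron in all, and with more than 0 intron counts in at least 1 of the 24 libraries. The intron table listed 37473 genes, of which 7873 were this short in intron sequence. Of those, 5030 had no intron count in any library and so were not members. The members were thus chosen by detection of any intron count, and by no difference between groups. The short genes were compared with the 22988 other genes that had an intron count.

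All libraries came from U2OS cells, an established human osteosarcoma line. The 4 treatments were Ctrl (0.12% DMSO, the vehicle, for 2 h), NaAsO2 (sodium arsenite at 500 µM for 60 min), RK-33 (an inhibitor of the RNA helicase DDX3, at 6 µM, as a pretreatment of 1 h) and Combo (that pretreatment with 6 µM RK-33 followed by 500 µM arsenite for 60 min). By the study's methods the 2 h of DMSO matched RK-33 in timing and duration, so the 1 h of pretreatment need not be the whole exposure. No vehicle was stated for the NaAsO2 libraries. Each lysate was cleared of nuclei at low speed and then split by a faster spin into a soluble cytoplasmic fraction and an insoluble one, the pellet in which RNP granules collect. Each of the 8 combinations had 3 replicates, and the 12 lysates each gave both fractions.

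Introns are removed from a new transcript by the spliceosome, which reads a GT at the intron's start, an AG at its end and, just before that AG, a stretch rich in C and T. Most splicing takes place in the nucleus, so an intron base seen in cytoplasmic RNA belongs to a transcript that kept it, to an excised intron or to another transcript from the same bases. Genes with very little intron sequence include the immediate early genes, which are copied within minutes of a stimulus, many ribosomal protein genes and the metallothioneins. Arsenite is a thiol-reactive stressor that induces metallothioneins and ferritins and halts translation, upon which stress granules form.

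Some introns of genes named in the results below are short enough to show. Each is given 5′ to 3′ on the gene's own strand from the hg38 genome, with the GT at the start and the AG at the end in capitals, and each lies between coding exons. CCN1 (chr1:85582285-85582415, plus strand) and RPL41 (chr12:56117212-56117481, plus strand) have 1 deposited intron each, shown whole, and stand for genes whose intron share fell under arsenite. FTL (intron at chr19:48965610-48965769, plus strand, the first of 3 deposited) and DUSP2 (intron at chr2:96144883-96144966, minus strand) stand for genes whose intron counts rose. TUBB4B (intron at chr9:137241830-137241910, plus strand) stands for genes that rose in Combo over NaAsO2. Bases that are exonic in any annotated transcript are not part of a deposited intron, so these numbers are not those of a gene's own introns. Counts were summed over all deposited introns of a gene. For FTL, DUSP2 and TUBB4B they are therefore not those of the printed intron alone.
CCN1: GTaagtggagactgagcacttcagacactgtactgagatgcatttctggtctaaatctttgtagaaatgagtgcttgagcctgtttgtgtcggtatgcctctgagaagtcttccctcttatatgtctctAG
RPL41: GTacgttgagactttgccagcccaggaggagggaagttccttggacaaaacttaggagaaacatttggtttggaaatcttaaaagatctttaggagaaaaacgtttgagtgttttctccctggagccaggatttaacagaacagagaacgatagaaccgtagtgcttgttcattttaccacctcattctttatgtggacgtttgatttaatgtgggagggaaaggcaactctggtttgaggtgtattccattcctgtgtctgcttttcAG
FTL: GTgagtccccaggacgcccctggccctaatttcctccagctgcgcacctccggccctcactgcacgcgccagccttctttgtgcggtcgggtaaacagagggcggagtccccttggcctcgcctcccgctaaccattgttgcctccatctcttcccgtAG
DUSP2: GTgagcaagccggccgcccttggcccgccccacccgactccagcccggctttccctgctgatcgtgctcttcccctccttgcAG
TUBB4B: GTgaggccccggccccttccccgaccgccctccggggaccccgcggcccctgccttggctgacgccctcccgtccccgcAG
These introns differ widely in base composition. The CCN1 intron of 131 bases was 43.5% G or C, whereas the printed TUBB4B intron of 81 bases was 81.5% G or C. Of the 20 bases before the closing AG, 85.0% were C or T in CCN1 and 75.0% in TUBB4B.

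Most members were thinly covered. The set held 414215 intron counts over all libraries, with a median of 18 counts per gene summed over the 24 libraries. Of the 2843 genes, 1529 had fewer than 24 counts, 403 had at least 240 and 73 had at least 1000. The 10 genes with the most counts held 13.1% of them, led by MT1E with 14308, MAT2A with 6395, the pseudogene CYP4F32P with 5867, the lncRNA ENSG00000288838 with 5187 and DUSP2 with 3899. HSPA8 (3897), ENSG00000282988 (3856), THOC6 (3714), SLC30A1 (3643) and the lncRNA ENSG00000234160 (3608) completed the list. These sums show the depth behind each gene and are not levels per length. At the length limit, 11 members of 1990 to 2000 bases had between 1 and 488 counts (median 49), and 10 genes just outside, of 2001 to 2010 bases, had between 2 and 2091 (median 47.5).

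By annotation, 1164 members were lncRNA genes, 1004 were protein coding, 297 were processed pseudogenes and 185 were unprocessed pseudogenes. The median member had 1 deposited intron, 796 intron bases and 51.6% G or C. In the deposited table an intron is a stretch of a gene without an annotated exon of any gene, so an intron that holds a small RNA gene is cut into pieces, and an intron base that is exonic in another transcript lies in the exon table. Of the 5703 stretches, 4970 (87.1%) were bounded by exons of their own gene, and 68.9% of those began with GT and ended with AG, against 5.18% of the others. Introns of 255 members (8.97%) overlapped an intron of another gene, and 457 members had an intron that ended at another gene's exon. Fragments were counted without regard to strand, so the gene of origin of such counts cannot be told apart.

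The libraries held 1621536 to 6092652 intron counts and 8627294 to 15376554 exon counts. Of a list of mesenchymal and bone-lineage genes, VIM, SPARC, COL1A1, RUNX2 and LOX were present in every group, whereas COL1A2 was near 0. A list of markers of other cell types summed to 11.05 to 29.9 exon CPM (counts relative to library size). The summed CPM of nuclear RNAs ranged from 11278 to 17001 in Ctrl soluble, 6578 to 9239 in Ctrl insoluble, 5727 to 8100 in NaAsO2 soluble and 1922 to 3580 in NaAsO2 insoluble libraries. It ranged from 7474 to 13718 and 6962 to 7690 in the RK-33 fractions, and from 8814 to 12669 and 5151 to 6302 in the Combo fractions. This sum is mostly MALAT1. NEAT1 and KCNQ1OT1 went the other way between the fractions, with NEAT1 at a mean of 312 CPM in NaAsO2 soluble, its lowest group, and 877 in NaAsO2 insoluble libraries, and KCNQ1OT1 at 13.7 and 35.1, and both were higher in the pellet mean of every treatment. The part of nuclear RNA in the results below was not tested. One library stood apart. RN7SL1, the cytosolic signal recognition particle RNA, took 5.79% of the exon counts of NaAsO2 insoluble replicate 3, against 0.426% to 1.23% in the other insoluble libraries and 7.51% to 15.5% in the soluble ones.

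Summed over all members, short introns held more unscaled counts in Combo than in the other treatments. They held more counts per exon count in the pellet than in the soluble fraction. Unscaled member intron counts were 14580 ± 1673 (SD, n = 3) in Ctrl soluble and 13650 ± 427 in Ctrl insoluble libraries. They were 12593 ± 1021 and 15953 ± 1858 in the NaAsO2 fractions, 18068 ± 2043 and 16664 ± 1587 in the RK-33 fractions, and 24389 ± 2895 and 22176 ± 951 in the Combo fractions. As a share of all intron counts the members held 0.581% and 0.279% in the Ctrl fractions, 0.647% and 0.471% with NaAsO2, 0.695% and 0.291% with RK-33, and 0.747% and 0.435% with Combo, so that by share the Combo pellet did not stand above the NaAsO2 pellet. Unscaled counts also follow library depth. The Combo libraries held 10348696 to 15376554 exon counts and the Ctrl libraries 8627294 to 10930016, so the unscaled counts are not amounts per cell. Since these are bulk lysates, cell number and RNA per cell cannot be told apart either.

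Relative to the exon counts of the same genes, members had 2.63 ± 0.39 intron counts per 100 exon counts in Ctrl soluble and 4.04 ± 0.46 in Ctrl insoluble libraries. The values were 1.86 ± 0.14 and 3.42 ± 0.47 with NaAsO2, 2.47 ± 0.43 and 5.29 ± 0.59 with RK-33, and 3.21 ± 0.38 and 4.54 ± 0.51 with Combo. Every insoluble library lay above every soluble library of its treatment. The log2 difference of insoluble over soluble was 0.62 (pooled SD 0.19) in Ctrl, 0.87 (0.16) in NaAsO2, 1.11 (0.21) in RK-33 and 0.50 (0.17) in Combo. With 3 libraries a side no two-sided exact permutation test can pass 0.05, so these sums were not tested. For the other genes, whose longer introns gave 24.3 to 60.1 intron counts per 100 exon counts as group means, the log2 difference was 0.77 in Ctrl, 0.31 in NaAsO2, 1.14 in RK-33 and 0.23 in Combo, and the fractions overlapped in NaAsO2 and in Combo.

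**Figure D1:**
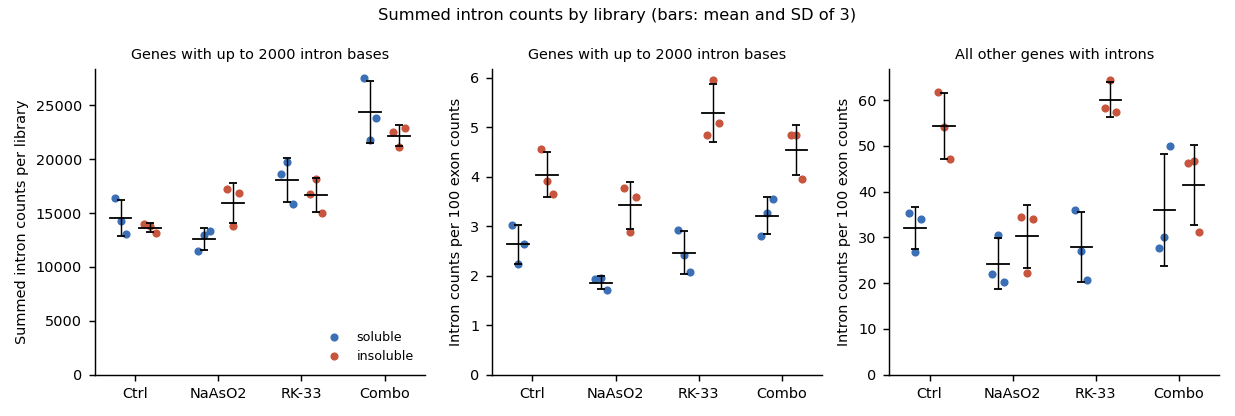
Summed intron counts of the short-intron genes, their intron counts per 100 exon counts, and the same ratio for all other genes, in each treatment and fraction. Points are libraries, and bars give the mean and SD of 3. Unscaled short-intron counts were highest in the Combo fractions, and the members' ratio was higher in every insoluble library than in the soluble libraries of its treatment.

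Gene by gene, 818 of the 2843 members passed the count filter (a mean of at least 1 intron CPM over all 24 libraries, whatever the group) and 377 had enough intron and exon counts for their ratio to be tested. A gene was called when its adjusted p was under 0.05 and its log2 difference at least 1 in size. The count test, edgeR, scaled each library to its intron counts, so a difference there is relative to all introns. Introns took 30.5% to 36.3% of all counts in Ctrl insoluble libraries and 17.7% to 22.3% in Ctrl soluble libraries. Scaling to exon counts instead moved the median log2 difference of all genes, for example from -0.11 to 0.58 between the Ctrl fractions and from 0.09 to -0.65 for NaAsO2 over Ctrl in the pellet, so both splits are given. The ratio test, limma on log2 of intron over exon counts, needs no library size, but it moves with the intron share of the whole library. The median log2 difference of the ratio over all genes was 0.56 between the Ctrl fractions. It was -0.68 for NaAsO2 over Ctrl in the pellet.

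Between the fractions of untreated cells, most called short introns were lower in the pellet relative to all introns. In Ctrl, 22 of the 818 members were higher in the insoluble fraction and 240 were lower, beside 6.58% and 12.3% of all 17406 genes tested. Under exon scaling 82 were higher and 75 lower, beside 27.2% and 3.33% of all genes, so that the balance of calls depended on the scaling. Of the members, 29.3% were thus lower under the first scaling. The median log2 difference was -0.77 for members and -0.11 for all genes. In NaAsO2, 46 members were higher and 104 lower (5.18% and 5.92% of all genes), in RK-33 27 and 295 (10.7% and 15.2%), and in Combo 35 and 167 (4.11% and 8.61%). Under exon scaling these became 75 and 60 (10.0% and 2.98%), 107 and 85 (37.9% and 3.57%), and 49 and 104 (7.06% and 4.84%).

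**Figure D2:**
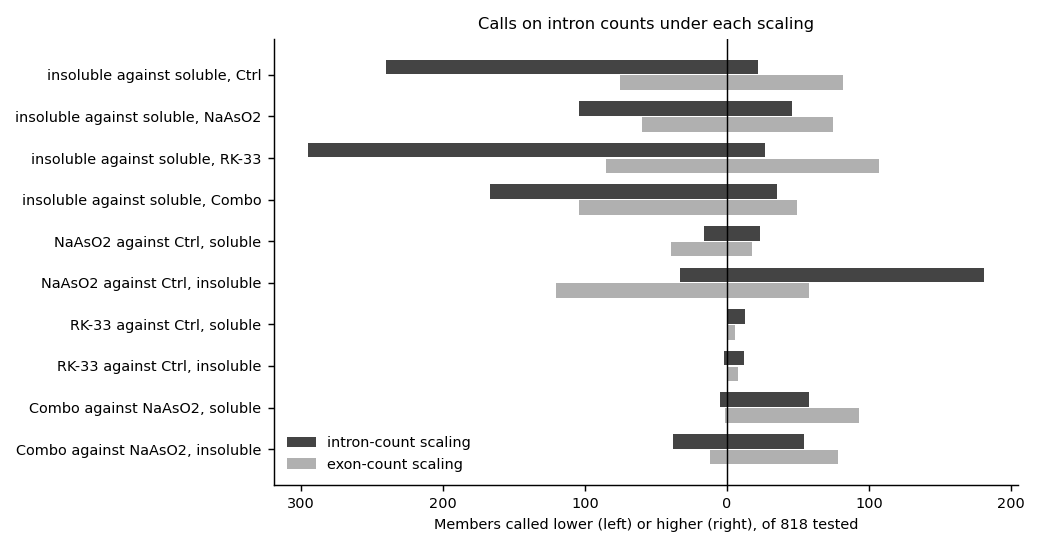
Number of short-intron genes, of 818 tested, called higher or lower in each of 10 comparisons, with libraries scaled to intron counts or to exon counts. In Ctrl, the fractions gave 22 higher and 240 lower calls under the first scaling and 82 and 75 under the second.

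The depleted introns included those of ribosomal proteins, of which 31 were members and 28 were tested. None was higher and 12 were lower in the insoluble fraction of Ctrl, 1 and 14 in NaAsO2, 0 and 14 in RK-33 and 0 and 12 in Combo. Of all genes, 12.3%, 5.92%, 15.2% and 8.61% were lower in the same order. Under exon scaling, 3, 10, 6 and 7 of the ribosomal proteins were lower, beside 3.33%, 2.98%, 3.57% and 4.84% of all genes. RPL23A, a protein of the large subunit, had 233, 212 and 177 intron counts in Ctrl soluble and 73, 56 and 47 in Ctrl insoluble libraries. The 2 ranges were far apart, with a log2 difference of -2.44 (SE 0.20, edgeR adjusted p = 3.3e-09). Its difference was -2.92, -2.84 and -2.53 in the NaAsO2, RK-33 and Combo pairs. Its introns overlap those of ENSG00000264577 and end at the snoRNA SNORD42B, and its exon counts were lower in the pellet as well, with a log2 difference of the ratio of -0.15 (SE 0.26, limma adjusted p = 0.69) that was not called. RPL29 differed by -2.19, -2.26, -2.38 and -2.07 in the same order of treatments.

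Relative to their own exons, the same gene family pointed the other way. Of the 27 ribosomal proteins whose ratio was tested, 12 were higher in the insoluble fraction of Ctrl, 18 in NaAsO2, 20 in RK-33 and 9 in Combo, and none was lower. Among all members, 59 were higher and 4 lower in Ctrl (26.2% and 2.14% of 12266 genes), 75 and 15 in NaAsO2 (18.5% and 7.10%), 104 and 8 in RK-33 (37.9% and 1.32%) and 31 and 7 in Combo (9.60% and 5.80%). The median ratio of all genes was also subtracted per library. In Ctrl 15 members were then higher and 30 lower (7.81% and 7.92% of all genes), and in NaAsO2 60 and 30 (12.5% and 11.3%). In RK-33 they were 31 and 44 (9.95% and 8.24%), and in Combo 33 and 10 (8.56% and 7.39%). After that centring the ribosomal proteins gave 0, 15, 6 and 9 higher calls. Before centring, the median log2 difference of the ribosomal ratios was 1.01 in Ctrl, 1.36 in NaAsO2, 1.55 in RK-33 and 1.02 in Combo. For all genes it was 0.56, 0.27, 0.78 and 0.12 in the same order. The Ctrl count of 63 fell to 40 without Ctrl soluble replicate 2, and the Combo count of 38 to 23 without Combo soluble replicate 1.

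The ferritin subunits showed the ratio plainly. FTL (chr19:48965309-48966879), the light chain of the iron store ferritin, had 0.95, 0.46 and 0.568 intron counts per 100 exon counts in Ctrl soluble libraries and 2.73, 1.44 and 1.58 in Ctrl insoluble libraries. Every insoluble library lay above the soluble ones, with a log2 difference of 1.56 (SE 0.30, limma adjusted p = 0.00027), and the differences were 1.28, 1.83 and 1.21 in NaAsO2, RK-33 and Combo. After centring on all genes the Ctrl difference was 0.96 and no longer called. FTH1, the heavy chain, differed by 1.94, 1.66, 2.22 and 1.21 in the same order. HMGN2, a nucleosome-binding protein, differed by 2.25, 2.07, 2.37 and 1.71.

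A few introns were higher in the pellet in counts too. PLK2, a stress-responsive kinase (chr5:58453982-58460139), had 16, 11 and 12 intron counts in Ctrl soluble and 70, 59 and 58 in Ctrl insoluble libraries, with a log2 difference of 1.64 (SE 0.34, edgeR adjusted p = 0.00037). The groups were well apart, and the ratio differed by 1.98 (SE 0.41, limma adjusted p = 0.0006). In RK-33 the count difference was 1.47, and it was 0.98 and not called without RK-33 soluble replicate 2. DMAP1, a chromatin protein with 7 deposited GT-AG introns, had 11, 2 and 7 intron counts in Ctrl soluble and 43, 32 and 39 in Ctrl insoluble libraries, a log2 difference of 1.89 (SE 0.47, edgeR adjusted p = 0.002).

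Other members with large ratio differences between fractions had various roles. GPS1, a subunit of the COP9 signalosome, was higher in the NaAsO2 pellet by 3.01 (SE 0.38, limma adjusted p = 2.3e-06), and in the Combo pellet by 2.36 (SE 0.38, limma adjusted p = 0.00011). GAPDH, the glycolytic enzyme, was higher in the NaAsO2 pellet by 2.26 (SE 0.30, limma adjusted p = 3.8e-06), though its introns overlap those of ENSG00000269968. CYCS, which encodes cytochrome c, was higher in the RK-33 pellet by 2.19 (SE 0.32, limma adjusted p = 6.6e-06), or by 1.41 after centring on all genes. RPL12 was higher there by 1.76 (SE 0.27, limma adjusted p = 1.1e-05), or by 0.98 and not called after centring, and CKB, a creatine kinase, was higher in the Combo pellet by 1.78 (SE 0.35, limma adjusted p = 0.0009). FZD4, a Wnt receptor, went the other way, with log2 differences of -2.08, -1.98 and -2.31 in NaAsO2, RK-33 and Combo, and its only deposited intron ends at an exon of PRSS23.

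Among other strongly depleted introns, not all were clearly those of their gene. The locus ENSG00000282988, annotated as protein coding (chr6:26195595-26199293), had 229, 219 and 216 intron counts in Ctrl soluble and 72, 41 and 46 in Ctrl insoluble libraries, a log2 difference of -2.69 (SE 0.25, edgeR adjusted p = 1.4e-08). Its 1 deposited intron ends at exons of the histone genes H2AC7 and H3C4. H2AZ2-DT, a noncoding transcript that starts beside the histone gene H2AZ2, was lower in every pellet, with differences of -2.95, -2.54, -4.10 and -3.43. LINC01970, a noncoding gene, had differences of -2.64, -2.74 and -2.69 in Ctrl, RK-33 and Combo. Conversely NOXO1 was higher in the Ctrl pellet by 1.07 (SE 0.31, edgeR adjusted p = 0.0066), beside exon counts of at most 2. One of its introns ends at an exon of TBL3, and the difference fell to 0.81 and 0.92 and lost its call without Ctrl soluble replicate 1 or Ctrl insoluble replicate 3.

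Other families differed among themselves. The share of all genes that was lower in the pellet was 12.3%, 5.92%, 15.2% and 8.61% in Ctrl, NaAsO2, RK-33 and Combo. Of 18 tested members encoding mitochondrial ribosome or respiratory chain proteins, 0 were higher and 9, 2, 11 and 7 were lower in the insoluble fraction of Ctrl, NaAsO2, RK-33 and Combo, and under exon scaling 5, 1, 3 and 5 were lower and 1 was higher, in Ctrl. Of the 16 tested immediate early and feedback genes, 6 were lower in the Ctrl pellet (EGR1, GADD45A, BTG2, IER2, ZFP36L2 and ZFP36) and 0 higher. Under exon scaling 3 were lower and 2 higher. In the NaAsO2 pellet 1 was higher (ZFP36L2) and 2 were lower, with a median of -0.04 beside 0.05 for all genes. Of the 2 tested heat shock and cochaperone genes, 0 were lower in any treatment, and HSPA8 was higher in the NaAsO2 pellet. Both snoRNA hosts SNHG25 and SNHG7, of 3 tested, were lower in the pellet of all 4 treatments. No member belonged to the splicing factor list, whose 26 genes in the table all have longer or no detected introns.

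Arsenite moved many short introns, more of them in the pellet. In the soluble fraction, 23 members were higher in NaAsO2 than in Ctrl and 16 were lower (0.925% and 1.59% of all genes), with a median of 0.05 beside 0.01 for all genes. In the insoluble fraction, 181 were higher and 33 lower (10.1% and 3.83%), with medians of 0.63 and 0.09. Under exon scaling the pellet gave 58 higher and 120 lower (1.66% and 28.7%) and the soluble fraction 18 and 39 (0.373% and 5.28%). The balance of directions thus depended on the scaling in both fractions. Without NaAsO2 insoluble replicate 3, the library with the high RN7SL1 share, 100 were higher and 28 lower. Without NaAsO2 soluble replicate 2 the soluble counts were 20 and 5.

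Metallothionein introns rose in both fractions. Metallothioneins are small cysteine-rich proteins that bind zinc and other metals, and 8 of the 10 in the table were members, of which 2 were tested. MT1E (chr16:56625475-56627112), with 1 deposited intron, had 183, 132 and 149 intron counts in Ctrl soluble and 909, 1018 and 1087 in NaAsO2 soluble libraries. In the pellet it had 75, 64 and 93 in Ctrl and 710, 445 and 503 in NaAsO2. No library of one treatment came near those of the other, with log2 differences of 3.12 (SE 0.18, edgeR adjusted p = 4.4e-13) and 3.31 (SE 0.19, edgeR adjusted p = 2.2e-13). The intron rose faster than the exons. MT1E had 8.41, 5.88 and 6.58 intron counts per 100 exon counts in Ctrl soluble libraries and 18.3, 17.2 and 17.3 in NaAsO2 soluble libraries, a log2 difference of 1.35 (SE 0.22, limma adjusted p = 0.00054), and in the pellet the difference was 1.16 (SE 0.22, limma adjusted p = 0.00019).

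MT1G, a paralog on the other strand of the same gene cluster, had hardly any intron counts without arsenite. Its intron had 3, 1 and 1 counts in Ctrl soluble, 115, 147 and 138 in NaAsO2 soluble, 0, 1 and 2 in Ctrl insoluble and 63, 44 and 122 in NaAsO2 insoluble libraries. Against these few Ctrl counts the NaAsO2 level was 106 times as high in the soluble fraction, with a 95% counting interval of 44.8 to 327, and 106 times in the insoluble fraction, with an interval of 36.0 to 520. The intervals cover counting error only. The authors kept uniquely mapped reads, so reads that fit several metallothionein paralogs equally well are not in these counts.

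Zinc and iron handling genes moved with them. SLC30A1 (chr1:211571568-211579161), a zinc exporter, had 50, 45 and 45 intron counts in Ctrl soluble and 192, 218 and 198 in NaAsO2 soluble libraries, a log2 difference of 2.53 (SE 0.20, edgeR adjusted p = 9.4e-10). The pellet differed by 2.04 (SE 0.21, edgeR adjusted p = 9.7e-08), or by 1.32 under exon scaling. Its ratio went from 0.55, 0.634 and 0.565 to 3.05, 2.94 and 2.53 per 100 exon counts in the soluble fraction, by 2.27 (SE 0.30, limma adjusted p = 9.3e-05). FTL had 57, 39 and 32 intron counts in Ctrl soluble and 132, 156 and 180 in NaAsO2 soluble libraries, and differed by 2.29 (SE 0.21, edgeR adjusted p = 1.3e-08) there and by 2.25 (SE 0.22, edgeR adjusted p = 5.8e-08) in the pellet. FTH1 rose by 1.90 and 1.86 in counts, whereas its ratio differed by 0.89 (SE 0.30, limma adjusted p = 0.044) and 0.62 (SE 0.30, limma adjusted p = 0.095) and was not called. Of the 6 tested oxidative and integrated stress genes, 3 rose in the soluble fraction (these 3) and 4 in the pellet (with CHAC1, an enzyme that degrades glutathione), and 0 fell. The same numbers rose under exon scaling. Among all genes 0.925% and 10.1% rose in the 2 fractions, or 0.373% and 1.66% under exon scaling.

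**Figure D3:**
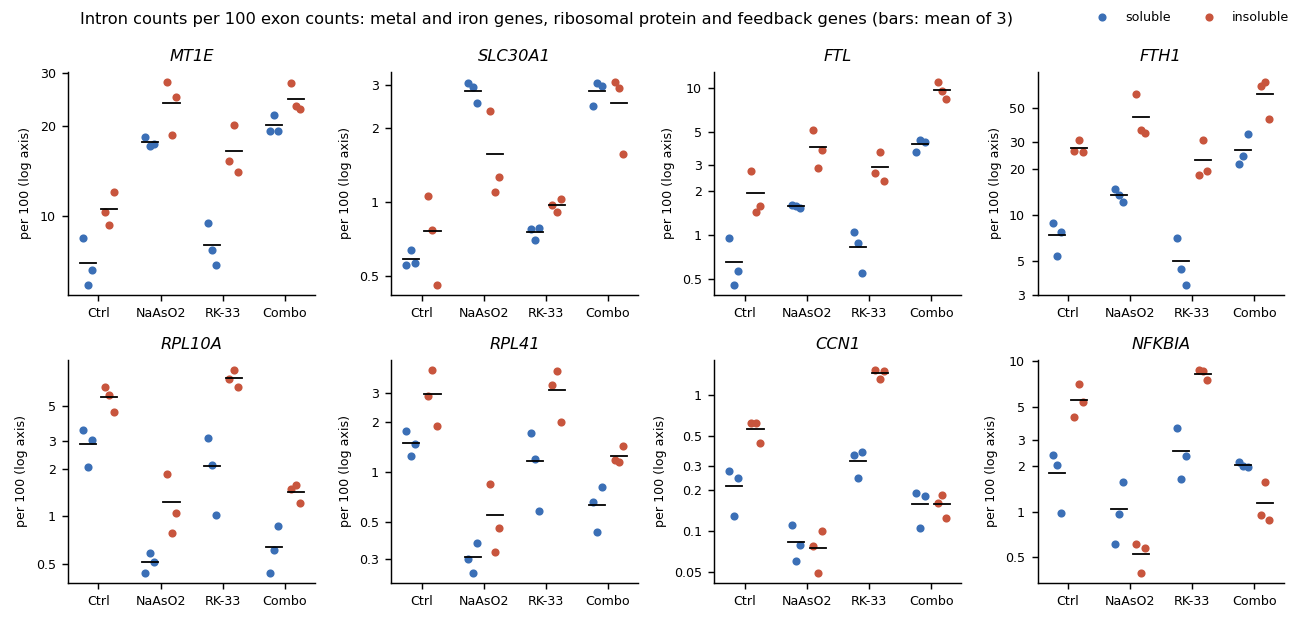
Intron counts per 100 exon counts of MT1E, SLC30A1, FTL, FTH1, RPL10A, RPL41, CCN1 and NFKBIA in every library, on log axes, with bars at the mean of 3. MT1E and SLC30A1 had higher ratios in every NaAsO2 library than in every Ctrl library of the fraction, and RPL10A, RPL41, CCN1 and NFKBIA had lower ones in the pellet.

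Immediate early genes rose next. Of 16 tested, 5 rose in the soluble fraction (EGR1, FOS, DUSP2, BTG2 and ZFP36) and 0 fell, with a median of 0.79 beside 0.01 for all genes. In the pellet 11 rose (these 5 with KLF2, ZFP36L2, IER2, BTG1, SOCS3 and PPP1R15A) and 2 fell (CCN1 and NFKBIA), with a median of 2.01 beside 0.09. Under exon scaling 5 rose and 1 fell in the soluble fraction and 9 and 3 in the pellet. Of all genes, 0.925% and 10.1% rose in the 2 fractions, or 0.373% and 1.66% under exon scaling. DUSP2 (chr2:96143169-96145440), a phosphatase of MAP kinases, had 17, 16 and 11 intron counts in Ctrl soluble, 84, 102 and 136 in NaAsO2 soluble, 23, 20 and 21 in Ctrl insoluble and 213, 124 and 383 in NaAsO2 insoluble libraries. The treatments did not overlap in either fraction, with log2 differences of 3.27 (SE 0.39, edgeR adjusted p = 3.4e-06) and 4.04 (SE 0.36, edgeR adjusted p = 1.1e-08). Its exons rose along with its introns, since the ratio differed by 0.10 (SE 0.23, limma adjusted p = 0.74) in the pellet.

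EGR1 (chr5:138465479-138469303), a zinc finger transcription factor with 1 deposited intron, had 33, 31 and 19 intron counts in Ctrl soluble and 127, 140 and 138 in NaAsO2 soluble libraries. In the pellet it had 11, 4 and 15 in Ctrl and 126, 64 and 43 in NaAsO2. Here too the treatments were apart, by 3.37 (SE 0.35, edgeR adjusted p = 1.3e-07) in the pellet. FOS, a subunit of the AP-1 factor, had 3, 5 and 1 intron counts in Ctrl insoluble and 48, 17 and 23 in NaAsO2 insoluble libraries, and differed by 3.67 (SE 0.47, edgeR adjusted p = 2.8e-06) there and by 3.74 (SE 0.44, edgeR adjusted p = 2.4e-06) in the soluble fraction. Among the 15 genes of the list with a tested ratio, 0 were higher in the pellet and 5 were lower (CCN1, NFKBIA, CCN2, GADD45A and PPP1R15A), close to the 31.7% of all genes that were lower, and the median of -0.34 lay above the -0.68 of all genes. After centring on all genes 1 was higher and 3 were lower.

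CCN1 and NFKBIA stood out among them because their exons rose while their introns fell. CCN1 (chr1:85580761-85584589), a secreted matrix protein, had 48, 48 and 41 intron counts in Ctrl insoluble and 18, 11 and 13 in NaAsO2 insoluble libraries, over the deposited intron printed above. Its exon counts were 7674, 7743 and 9224 in the former and 23407, 22325 and 13106 in the latter. Introns and exons therefore moved in opposite directions without overlap, with -1.22 (SE 0.29, edgeR adjusted p = 0.0024) for the intron counts and -2.91 (SE 0.34, limma adjusted p = 6.3e-07) for the ratio, which went from 0.625, 0.62 and 0.444 to 0.0769, 0.0493 and 0.0992 per 100 exon counts. NFKBIA (chr14:35401513-35404749), the inhibitor of NF-kappaB, had 13, 24 and 22 intron counts in Ctrl insoluble and 8, 5 and 5 in NaAsO2 insoluble libraries beside exon counts of 303, 339 and 411 in the former and 1314, 1272 and 875 in the latter. Its ratio differed by -3.32 (SE 0.40, limma adjusted p = 8.3e-07). SLC25A5, a mitochondrial ADP/ATP carrier, had the lowest ratio difference of the soluble fraction among the genes named here, -3.13 (SE 0.56, limma adjusted p = 0.0011), with an intron that ends at an exon of SLC25A5-AS1. The cytokine gene LIF, 1 of whose deposited introns ends at an exon of the antisense gene LIF-AS2, had a ratio difference of -2.30 (SE 0.32, limma adjusted p = 6.6e-06) in the pellet, and ZWINT, a kinetochore protein, had -3.88 (SE 0.60, limma adjusted p = 2.1e-05).

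Ribosomal protein introns that were called under arsenite fell, but for RPS21, relative to all introns and mostly to their own exons. Of 28 tested, 0 rose and 6 fell in the soluble fraction (RPL10A, RPL41, RPS13, RPS23, RPL7 and RPS2) with a median of -0.70. In the pellet 1 rose (RPS21) and 11 fell (RPL37, RPL10A, RPS13, RPL9, RPL7A, RPL41, RPS2, RPS6, RPS23, RPS27A and RPL8) with a median of -0.86. Under exon scaling 0 rose and 13 fell, and 1 rose and 18 fell. Of all genes, 1.59% and 3.83% fell in the 2 fractions, or 5.28% and 28.7% under exon scaling. For RPS13 the soluble call was lost without Ctrl soluble replicate 3 (-0.95) or NaAsO2 soluble replicate 2 (-0.94). Of the 27 ratios, 0 rose and 17 fell in the soluble fraction, with a median of -1.39 beside -0.38 for all genes, and 1 rose and 15 fell in the pellet, with -1.35 beside -0.68. After centring these were 0 and 12, and 3 and 9.

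RPL10A (chr6:35468401-35470785), of the large subunit, had 128, 87 and 94 intron counts in Ctrl soluble and 17, 26 and 28 in NaAsO2 soluble libraries, whereas its exon counts were 3641, 4232 and 3104 in Ctrl and 3885, 4453 and 5516 in NaAsO2. The exon ranges overlapped and the intron ranges did not, with -1.71 (SE 0.22, edgeR adjusted p = 1.2e-05) for the intron counts and -2.44 (SE 0.35, limma adjusted p = 0.00019) for the ratio. In the pellet the intron counts differed by -1.73 (SE 0.23, edgeR adjusted p = 4.9e-06). One of its 2 deposited introns ends at the miRNA gene MIR7111. RPL41 (chr12:56116590-56117967), with the single intron shown above, had 37, 59 and 26 intron counts in Ctrl insoluble and 13, 6 and 8 in NaAsO2 insoluble libraries, a difference of -1.69 (SE 0.37, edgeR adjusted p = 0.001), and its ratio differed by -2.40 (SE 0.39, limma adjusted p = 3.2e-05). RPL37 had 101, 96 and 89 intron counts in the Ctrl pellets and 24, 20 and 3 in the NaAsO2 pellets, a difference of -2.13 (SE 0.28, edgeR adjusted p = 3.5e-06). The lowest of these, 3 counts, was in NaAsO2 insoluble replicate 3.

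Over all members, 5 ratios rose and 38 fell in the soluble fraction (0.448% and 10.8% of all genes) and 16 rose and 75 fell in the pellet (1.14% and 31.7%). The members' median was -0.32 in the pellet beside -0.68 for all genes, and after centring 59 were higher and 26 lower (8.16% and 7.04%). In the soluble fraction centring gave 20 and 20 (2.62% and 3.13%). The soluble count of 43 fell to 19 without Ctrl soluble replicate 1, to 23 without Ctrl soluble replicate 3 and to 25 without NaAsO2 soluble replicate 3.

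**Figure D4:**
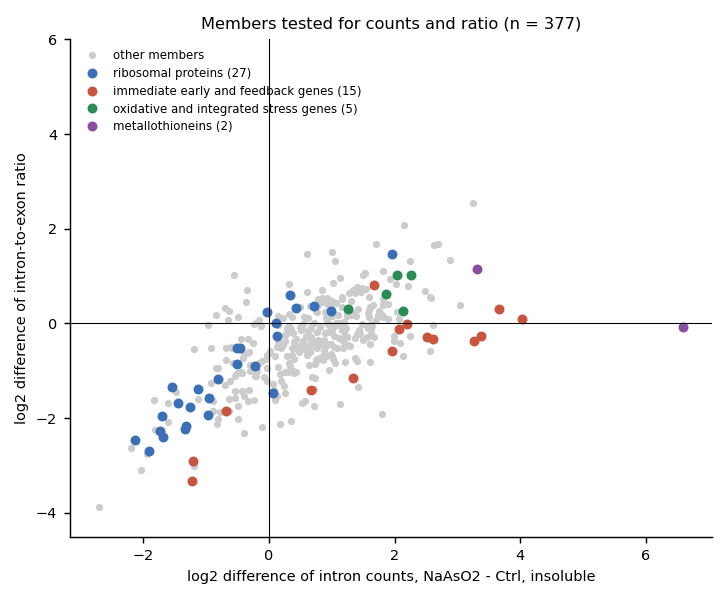
Log2 difference of NaAsO2 over Ctrl in the insoluble fraction for 377 short-intron genes, with the intron counts on the horizontal axis and the intron-to-exon ratio on the vertical axis. Metallothioneins (2 genes) lie far to the right, oxidative and integrated stress genes (5) mostly to the right, most ribosomal proteins (27) to the lower left, and immediate early genes (15) mostly to the right, with CCN1 and NFKBIA at the lower left.

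Base composition moved with the arsenite difference. Over the 818 tested members, Spearman's rho between the G and C share of the introns and the log2 difference was 0.46 in the pellet and 0.29 in the soluble fraction, and with intron length it was -0.10 and -0.08. All members share the same libraries, so these are descriptions. Among members above the median G and C share, 130 rose and 3 fell in the pellet, against 51 and 30 at or below the median, beside 10.1% and 3.83% of all genes. Under exon scaling 44 rose and 17 fell above the median, whereas 14 rose and 103 fell at or below it, beside 1.66% and 28.7% of all genes, so that the balance in the lower group turned with the scaling. Combo over NaAsO2 gave a rho of -0.29 in the pellet, and RK-33 over Ctrl gave 0.29 in the soluble fraction and 0.13 in the pellet.

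RK-33 alone changed few short introns. It was compared with the same Ctrl libraries as NaAsO2, so the 2 sets of differences are not independent. In the soluble fraction 13 members were higher than in Ctrl and 0 lower (0.620% and 0.0460% of all genes), and in the pellet 12 were higher and 2 lower (0.689% and 0.218%). Under exon scaling there were 6 and 0 (0.282% and 0.0230%), and 8 and 0 (0.460% and 0.0345%). Single libraries mattered here. The soluble count of 13 became 8 without Ctrl soluble replicate 1 or RK-33 soluble replicate 1, 6 without Ctrl soluble replicate 2 or 3, and 23 without NaAsO2 insoluble replicate 3. The pellet count of 14 became 8 and 9 without Ctrl insoluble replicate 1 or 3 and 7 without RK-33 insoluble replicate 1 or 3.

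Immediate early and feedback genes made up 6 of the 13 members that rose in the soluble fraction and 7 of the 12 in the pellet. Of 16 tested, 6 rose in the soluble fraction (GADD45A, EGR1, CXCL8, DUSP2, CCN1 and FOS) and 7 in the pellet (with ZFP36), and 0 fell, with medians of 1.11 and 1.05 beside -0.03 and 0.01 for all genes. Under exon scaling 3 and 6 rose. Of all genes, 0.620% and 0.689% rose in the 2 fractions, or 0.282% and 0.460% under exon scaling. GADD45A (chr1:67685201-67688334), a growth arrest protein, had 77, 63 and 53 intron counts in Ctrl soluble and 228, 227 and 151 in RK-33 soluble libraries. The pellet held 55, 44 and 48 in Ctrl and 164, 179 and 165 in RK-33. In both fractions every RK-33 library lay above every Ctrl library, by 1.54 (SE 0.18, edgeR adjusted p = 1.1e-06) and 1.66 (SE 0.18, edgeR adjusted p = 4e-07). Its exons rose as well, and the ratio differed by 0.71 (SE 0.26, limma adjusted p = 0.23) in the pellet, which was not called. EGR1 had 59, 79 and 87 intron counts in RK-33 insoluble libraries, with a difference of 2.77 (SE 0.36, edgeR adjusted p = 6.8e-06), and its ratio rose by 1.26 (SE 0.33, limma adjusted p = 0.047).

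UBB and the chaperone HSPA8 rose with them. UBB (chr17:16380798-16382745), which encodes a ubiquitin polyprotein, had 3, 7 and 2 intron counts in Ctrl insoluble and 43, 31 and 38 in RK-33 insoluble libraries, and the soluble fraction held 18, 22 and 17 in Ctrl and 55, 84 and 67 in RK-33. No groups overlapped, with differences of 3.05 (SE 0.42, edgeR adjusted p = 1.9e-05) in the pellet and 1.76 (SE 0.30, edgeR adjusted p = 0.00068) in the soluble fraction. Its ratio went from 0.647, 1.23 and 0.416 to 7.8, 7.89 and 8.7 intron counts per 100 exon counts in the pellet, by 3.36 (SE 0.29, limma adjusted p = 5e-08). The UBB rise was not particular to RK-33. In the pellet its ratio was also higher in NaAsO2 than in Ctrl, by 2.55 (SE 0.29, limma adjusted p = 5.1e-07). After centring on all genes the 2 differences were 3.35 with RK-33 and 3.29 with NaAsO2.

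HSPA8 (chr11:123057489-123063230), the constitutive Hsp70 chaperone, had 57, 56 and 40 intron counts in Ctrl insoluble and 241, 259 and 221 in RK-33 insoluble libraries, with a difference of 2.10 (SE 0.26, edgeR adjusted p = 4.7e-06). In the soluble fraction it rose by 1.79 (SE 0.30, edgeR adjusted p = 0.00062). The ratio went from 0.495, 0.394 and 0.244 to 1.7, 2.22 and 1.94 per 100 exon counts in the pellet, by 2.41 (SE 0.43, limma adjusted p = 0.0032). Of its 8 deposited introns 2 end at the snoRNA gene SNORD14E. In NaAsO2 insoluble libraries the HSPA8 ratio was 1.2, 0.614 and 4.92, with replicate 3 well above the others, and the difference from Ctrl was 2.07 (SE 0.43, limma adjusted p = 0.00045), or 1.24 without that replicate.

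Of all 377 ratios, 0 were called in either direction by limma in the soluble fraction (0.0897% and 0.0245% of all genes), although 28 had an unadjusted p under 0.05. After centring 3 rose and 0 fell (0.628% and 0.163% of all genes). In the pellet 10 rose and 0 fell (1.18% and 0.122%), and after centring 15 and 3 (1.98% and 0.489%). These 10 calls depended on single libraries. They became 3, 6 and 4 without Ctrl insoluble replicate 1, 2 or 3, and 3, 2 and 3 without RK-33 insoluble replicate 1, 2 or 3. By counts, 0 of 28 ribosomal protein genes were called in either fraction with RK-33, with medians of 0.08 and -0.01, and so few of all genes were called (0.620% and 0.0460%, and 0.689% and 0.218%) that nothing is read from this.

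**Figure D5:**
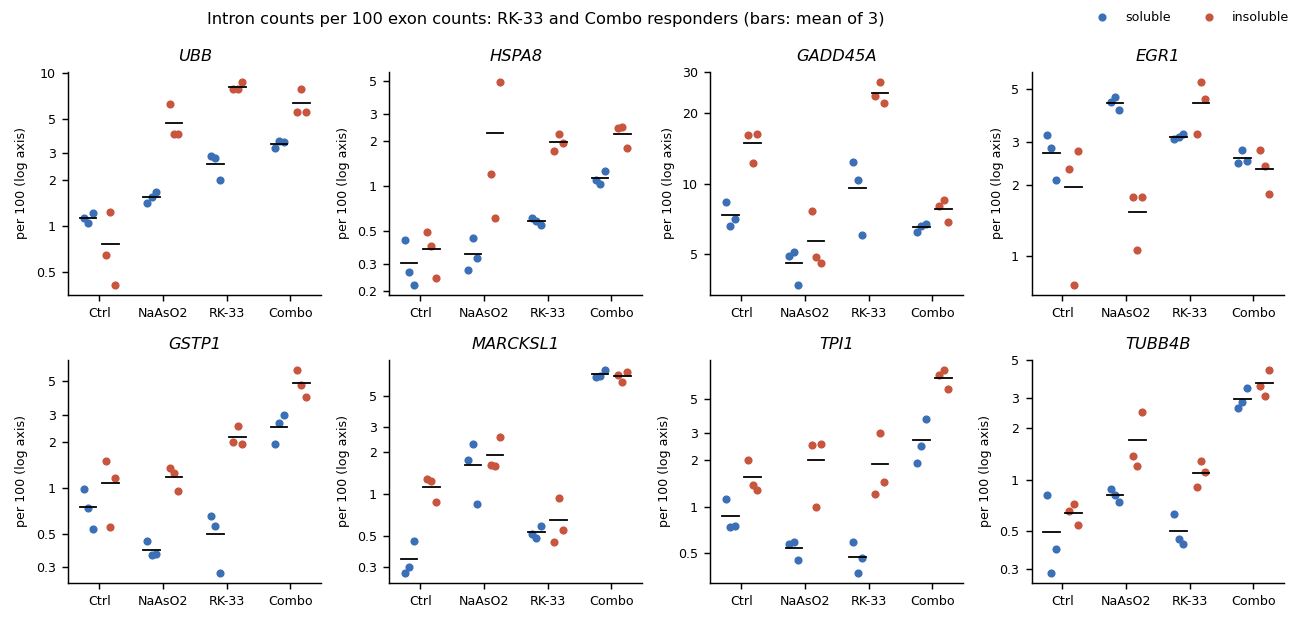
Intron counts per 100 exon counts of UBB, HSPA8, GADD45A, EGR1, GSTP1, MARCKSL1, TPI1 and TUBB4B in every library, on log axes, with bars at the mean of 3. UBB and HSPA8 were higher in every RK-33 insoluble library than in every Ctrl insoluble library, and GSTP1 was higher in every Combo library than in every NaAsO2 library of its fraction.

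RK-33 given with arsenite was compared with arsenite alone, and more short introns were higher than lower, as among all genes. This comparison has another baseline than RK-33 over Ctrl, and the difference between the comparisons was not tested. In the soluble fraction 58 members were higher in Combo than in NaAsO2 and 5 lower (5.37% and 0.896% of all genes), and in the pellet 54 were higher and 38 lower (6.34% and 3.94%). As shares of the tested members these were 7.09% and 0.611%, and 6.6% and 4.65%, near those of all genes. Under exon scaling the calls were 93 and 1 (10.5% and 0.103%) and 78 and 12 (10.5% and 1.18%). Without Combo insoluble replicate 2, the pellet gave 45 and 11.

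GSTP1 (chr11:67583742-67586656), a glutathione transferase with 2 deposited introns, had 18, 17 and 22 intron counts in NaAsO2 soluble and 122, 108 and 123 in Combo soluble libraries. Its pellet held 17, 16 and 20 in NaAsO2 and 82, 52 and 61 in Combo. There was no overlap in either fraction, with 1.99 (SE 0.26, edgeR adjusted p = 2.8e-06) and 1.38 (SE 0.28, edgeR adjusted p = 0.00045). The soluble libraries held 33, 31 and 17 in Ctrl and 27, 31 and 17 in RK-33 alone, below every Combo library. The ratio rose by 2.64 (SE 0.35, limma adjusted p = 1.9e-05) and 2.01 (SE 0.35, limma adjusted p = 0.00052).

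MARCKSL1 (chr1:32333839-32336233), a relative of the actin regulator MARCKS with 1 deposited intron, went from 31, 45 and 19 to 218, 164 and 192 intron counts in the soluble fraction, by 1.97 (SE 0.32, edgeR adjusted p = 5.7e-05), and its ratio rose by 2.25 (SE 0.33, limma adjusted p = 4.9e-05). TPI1 (chr12:6867119-6870948), the glycolytic triosephosphate isomerase, went from 41, 45 and 42 to 197, 157 and 231, by 1.54 (SE 0.32, edgeR adjusted p = 0.001), and its ratio rose by 2.27 (SE 0.35, limma adjusted p = 0.0001) there and by 1.87 (SE 0.35, limma adjusted p = 0.00096) in the pellet. TUBB4B (chr9:137241287-137243707), a beta-tubulin, went from 67, 69 and 77 to 389, 309 and 367, by 1.68 (SE 0.26, edgeR adjusted p = 2.4e-05), and its ratio rose by 1.86 (SE 0.31, limma adjusted p = 0.00023). TUBB4B and TUBB2A were the 2 of 5 tested cytoskeletal genes that rose in both fractions. In these genes the intron gained on its exons. For MARCKSL1 the soluble ratio was already higher in NaAsO2 than in Ctrl, by 2.04 (SE 0.33, limma adjusted p = 0.00041). After centring on all genes that difference was 2.43.

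MAT2A (chr2:85539168-85545281) makes S-adenosylmethionine and is known for an intron whose removal depends on the level of that product. Its introns had 107, 109 and 135 counts in NaAsO2 soluble, 512, 438 and 521 in Combo soluble, 183, 109 and 124 in NaAsO2 insoluble and 604, 599 and 384 in Combo insoluble libraries. All Combo libraries lay above all NaAsO2 libraries, by 1.42 (SE 0.16, edgeR adjusted p = 1.7e-07) and 1.45 (SE 0.16, edgeR adjusted p = 7.9e-08), whereas the ratio differed by 0.95 (SE 0.24, limma adjusted p = 0.01) and 0.61 (SE 0.24, limma adjusted p = 0.11) and was not called. SLC35B2, a transporter of the sulfate donor PAPS into the Golgi, rose by 1.32 and 1.62 in counts and by 1.89 and 2.23 in ratio. SAT1, which acetylates polyamines, rose by 1.69 and 1.82 in counts.

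Some immediate early genes rose further. Of 16 tested, 6 were higher in Combo than in NaAsO2 in the soluble fraction (ZFP36, BTG2, PPP1R15A, DUSP2, SOCS3 and BTG1) and 0 lower, and in the pellet 4 were higher (BTG2, PPP1R15A, ZFP36 and NFKBIA) and 1 lower (ZFP36L2). Of all genes, 5.37% and 6.34% were higher and 0.896% and 3.94% lower. Under exon scaling 10 and 7 were higher and 0 lower, beside 10.5% and 10.5% of all genes higher. ZFP36, which binds AU-rich elements and speeds mRNA decay, had 17, 23 and 21 intron counts in NaAsO2 soluble and 158, 127 and 139 in Combo soluble libraries, a difference of 2.17 (SE 0.26, edgeR adjusted p = 5.5e-07). CHAC1 rose in both fractions, by 2.11 and 1.91. SNHG12 and SNHG7, hosts of snoRNAs, rose in both as well. Of the 28 ribosomal proteins, 1 (RPLP1) rose in the soluble fraction and 3 (RPLP1, RPS2 and RPL41) in the pellet, with medians of -0.03 and -0.04. These few ribosomal calls are near the shares of all genes, and nothing is read from them.

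A smaller group fell, most of it in the pellet. LIF (chr22:30240453-30246759) had 41, 27 and 45 intron counts in NaAsO2 insoluble and 16, 14 and 23 in Combo insoluble libraries, and the soluble libraries held 25, 23 and 18 in NaAsO2 and 13, 9 and 9 in Combo. Every Combo library lay below every NaAsO2 library, with a log2 difference of -1.56 (SE 0.34, edgeR adjusted p = 0.0011) in the pellet and -1.72 (SE 0.39, edgeR adjusted p = 0.0026) in the soluble fraction. TRIM56, a ubiquitin ligase, differed by -1.61 (SE 0.29, edgeR adjusted p = 0.00015), and MIF4GD, which takes part in histone mRNA translation, by -1.52 (SE 0.31, edgeR adjusted p = 0.00057). FBXL8 differed by -1.07 (SE 0.22, edgeR adjusted p = 0.00078), but by -0.75 under exon scaling, -0.76 without NaAsO2 insoluble replicate 2 and -0.91 without Combo insoluble replicate 2, none of which was called. ENSG00000288838 differed by -1.07 (SE 0.24, edgeR adjusted p = 0.0014), with -0.85 under exon scaling, -0.87 without NaAsO2 insoluble replicate 3, and -0.91 and -0.92 without Combo insoluble replicates 1 and 2, likewise not called.

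Among ratios, 32 members were higher in Combo than in NaAsO2 in the soluble fraction and 2 lower (9.07% and 0.293% of all genes), and 30 were higher and 0 lower in the pellet (7.46% and 0.505%). As shares of the tested members these were 8.49% and 0.531%, and 7.96% and 0%, near those of all genes. After centring the calls were 22 and 5 (4.07% and 1.43%), and 23 and 5 (4.82% and 2.42%). The soluble count of 34 fell to 16 without Combo soluble replicate 3, and the pellet count of 30 fell to 14 without Combo insoluble replicate 1.

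Few members were called for a change of the fraction difference with treatment. For arsenite against Ctrl, 13 members had a larger insoluble-over-soluble difference with NaAsO2 and 0 a smaller one (1.37% and 0.178% of all genes), and under exon scaling there were 0 and 0 (0.00% and 0.00%). The 13 became 0 without Ctrl soluble replicate 2, Ctrl insoluble replicate 1 or NaAsO2 soluble replicate 2 and 61 without NaAsO2 insoluble replicate 1, and the other libraries gave values between. For Combo against NaAsO2, 0 members were called in either direction by edgeR (0.00% and 0.00% of all genes), with 58 at an unadjusted p under 0.05 and 0 by DESeq2 or by edgeR's likelihood ratio test. By kind of gene, in Ctrl, 12 of 503 protein coding genes were higher in the pellet and 136 lower, beside 5 and 90 of 235 lncRNA genes and 6.58% and 12.3% of all genes. Under exon scaling the balance turned for protein coding genes, with 44 higher and 33 lower, and lncRNA genes gave 21 and 39, beside 27.2% and 3.33% of all genes. Of the 305 members whose introns were all of the GT-AG kind, 9 were higher and 92 lower, beside 6 and 55 of the 177 with none of that kind, and under exon scaling these were 27 and 36, and 21 and 14.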

How the data were processed

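A directional kit was used to sequence 24 libraries from fractionated U2OS cytoplasm. The authors aligned reads to GRCh38.p13 with STAR 2.7.2b, kept uniquely mapped reads, used SAMtools 1.2, and deposited whole-number counts per gene from featureCounts 1.5.3 without strand, separately for exons and introns of GENCODE 40 (an overlap of at least 25 bases for introns). The deposited introns are gene bases outside the exons of all genes. Intron counts ranged from 1621536 to 6092652 per library. The circular RNA tables were not used.

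Members and gene lists were chosen with earlier results of these data known. Intron counts of 17406 genes (mean CPM of 1 or more) were fitted over 8 groups with edgeR 4.0.16 (TMM, quasi-likelihood test, R 4.3.3), and log2((intron + 0.5)/(exon + 0.5)) of 12266 genes with means of at least 10 intron and 10 exon counts with limma 3.58.1 (trend). P-values were adjusted by Benjamini-Hochberg over all genes tested, and a call needed 0.05 and a log2 difference of 1. The scripts were tested on simulated data. The replicates are 3 repeats of the fractionation experiment, per the study's methods. A counting interval for MT1G is an exact 95% interval.

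Named genes were the 5 of smallest adjusted p per direction and count comparison with a mean of at least 10 counts, the 3 of smallest adjusted p per direction for the ratio, the 10 with the most counts and up to 6 of each list. Not every gene of this rule is reported here. TUBB2A, RPS21, KLF2 and other list members given without values complete counts. Intron sequences, gene positions and classes came from hg38 and GENCODE 44. Alternatives were other scalings, filters, pseudocounts and tests (DESeq2 1.42.0 and the likelihood ratio test), replicate blocks, and each library left out. Centring the ratio on the median of all genes was chosen after seeing the data.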

Additional observations from a re-analysis of the deposited data

Results flagged for a closer look

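Among the short-intron genes, 13 had an insoluble-over-soluble difference of intron counts that was larger with NaAsO2 than with Ctrl by edgeR's test of the difference itself. The differences of log2 differences were 3.11 for NKX3-2, 2.76 for ZFP36L2, 2.61 for FGF22, 2.32 for PPP1R35-AS1, 2.25 for CENATAC-DT, 2.24 for ENSG00000265717, 2.17 for CKB, 1.89 for MIF4GD, 1.64 for ENSG00000286596, 1.63 for ENSG00000234160, 1.62 for ENSG00000286393, 1.52 for ENSG00000229689 and 1.48 for ENSG00000288838. All 13 were positive, so relative to all introns these were further toward the pellet with arsenite. They were 1.59% of the tested members, beside 1.37% of all genes called higher and 0.178% lower. Their number and direction were thus near those of all genes, and nothing is read from them. Under exon scaling 0 of the 13 were called. The 13 became 0 without Ctrl soluble replicate 2, Ctrl insoluble replicate 1 or NaAsO2 soluble replicate 2, 6 without Ctrl soluble replicate 1 or NaAsO2 soluble replicate 3, 3 and 5 without Ctrl insoluble replicates 2 and 3, 61 and 20 without NaAsO2 insoluble replicates 1 and 2, and 21 without Combo insoluble replicate 3.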

How the results depend on the processing

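Of 141 named results, 113 kept their direction and their side of the threshold under every alternative run, 118 did so whenever a single library was left out, and 0 reversed. With exon scaling the calls for intron counts were 157 between the Ctrl fractions, 192 between the RK-33 fractions, 6 and 8 for RK-33 over Ctrl in the soluble and insoluble fractions, and 0 for the change of the fraction difference with NaAsO2. Without the low-count filter the soluble RK-33 count was 21 and the fraction-difference count 48, and with the likelihood ratio test they were 22 and 34. The main fits used group means and did not pair the fractions of a lysate. Fractions were matched by replicate number, which the labels do not tie to a lysate. Same-numbered samples did not vary together (1 of 12 lysates and 15 of 84 replicate-number pairs had a correlation over 0.1), and only the fraction-difference count moved with a replicate block, to 20 by number and 4 by lysate. For the ratio, no filter gave 114, 152, 231 and 79 calls between the fractions of Ctrl, NaAsO2, RK-33 and Combo, 158 for NaAsO2 over Ctrl and 6 for RK-33 over Ctrl in the pellet. A mean of at least 50 counts left fewer genes and gave 9, 18, 20 and 10, then 10 and 14 for NaAsO2 over Ctrl, 3 for RK-33 in the pellet, and 9 and 8 for Combo over NaAsO2. Centring gave 3 and 18 for RK-33. Leaving out each library in turn, intron count calls ranged over 197 to 293, 101 to 154, 250 to 338 and 146 to 223 between fractions, 25 to 53 and 128 to 245 for NaAsO2 over Ctrl, 6 to 23 and 7 to 21 for RK-33 over Ctrl, 45 to 75 and 56 to 125 for Combo over NaAsO2, and 0 to 61 and 0 to 0 for the fraction differences. Ratio calls ranged over 40 to 67, 77 to 99, 83 to 122 and 23 to 51, then 19 to 58 and 69 to 104, 0 to 0 and 2 to 15, and 16 to 48 and 14 to 44. The summed log2 ratio ranged over 0.51 to 0.73, 0.80 to 0.99, 0.99 to 1.24 and 0.41 to 0.60. The cause of these moves was not tested. With a median of 18 counts over 24 libraries, 2025 of the 2843 members were too thin to test.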
